A study of Mus musculus with 16 samples.

Results

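The genes described here encode the translation initiation factors, the translation elongation factors eEF1 and eEF2, and the aminoacyl-tRNA synthetases. They were taken by name: every gene whose probes carried a single symbol beginning with Eif1 to Eif6, Eef1 or Eef2, or a synthetase symbol made of the amino acid letters followed by ars, ars1 or ars2. The rule found 74 genes among the 7114 named genes on the array, measured by 136 probes, with 43 initiation factor genes, 7 elongation factor genes and 24 synthetase genes. Total RNA of 2 groups of mouse cells, labelled WT and M833 and called cell types here, had been hybridised to two-colour arrays beside a common reference RNA. The series is titled for Met mutations in MEFs, a common short form of mouse embryonic fibroblasts. No label explains the name M833 or states which strain, age or treatment the cells had or what the reference RNA was made of. Per cell type there were 8 arrays, with the sample labelled with Cy5 on 4 of them and with Cy3 on the other 4. No label states whether separate cultures lie behind the arrays, so the p-values below refer to the spread between arrays, which may be technical.

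Translation begins when initiation factors load the initiator tRNA onto the small ribosomal subunit (eIF1, eIF1A, eIF2, eIF3), bring that subunit to the cap of the messenger (the eIF4 group) and join the large subunit (eIF5, eIF5B), while eIF6 keeps free large subunits apart from small ones. Elongation then relies on eEF1, which delivers charged tRNA, and on eEF2, which moves the ribosome along. The charged tRNAs are made by aminoacyl-tRNA synthetases, of which cytosolic and mitochondrial forms are mostly encoded by separate genes. When amino acids run short or unfolded protein accumulates, kinases phosphorylate eIF2, most translation slows, and the transcription factor ATF4 raises the transcripts of many cytosolic synthetases through C/EBP-ATF response elements. The transcription factor Myc binds E-boxes and is known to raise genes of ribosome production and of initiation, Eif4e among them.

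Because these elements link synthetase and initiation factor genes to known regulators, the promoters of the 74 genes were searched for both. RefSeq windows (GRCm38.p6) of 300 bases, from 250 before to 50 after an annotated start, were used for 58 of the 74 genes. The response element core searched was TGATGCAA on either strand. It lay in the windows of 4 of the 58 genes (6.9%), against 279 of all 27025 genes with a window used (1.03%). All 4 were among the 9 cytosolic synthetase genes with a window used. They were the genes for the tyrosine (Yars), alanine (Aars), isoleucine (Iars) and threonine (Tars) enzymes. In Aars the core began 112 bases before the start and in Tars 15 before it, while in Iars and Yars it began at base 8 and base 4 of the transcript. The stretches lie at chr4:129189874-129189922 (plus strand, Yars), chr8:111033698-111033769 (plus strand, Aars), chr13:49682105-49682149 (plus strand, Iars) and chr15:11399639-11399705 (minus strand, Tars). Each is shown 5′ to 3′ on the strand of its gene, with the core or its reverse complement in capitals.
Yars: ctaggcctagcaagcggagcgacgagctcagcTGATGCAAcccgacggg
Aars: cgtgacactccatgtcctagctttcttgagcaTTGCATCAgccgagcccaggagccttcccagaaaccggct
Iars: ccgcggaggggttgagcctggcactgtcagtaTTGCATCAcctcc
Tars: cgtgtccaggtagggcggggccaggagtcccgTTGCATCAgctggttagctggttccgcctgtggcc

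The E-box CACGTG, which reads the same on both strands, lay in the windows of 15 of the 58 genes (25.9%), against 8.09% of the 27025 genes. They included Eif4e, the gene of the cap-binding protein, with E-boxes 228 and 64 bases before a start, of which the nearer is shown (chr3:138527172-138527241, plus strand, E-box in capitals).
Eif4e: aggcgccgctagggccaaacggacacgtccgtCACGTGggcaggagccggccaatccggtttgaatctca

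Messengers whose translation follows mTORC1 begin with a run of pyrimidines. A run of at least 5 from the annotated start base was found in 4 of the 58 genes (6.9%) against 5.28% of the 27025 genes. The count took C or T as the first base and the longest run over the annotated starts of a gene. Since it rests on annotated starts, it neither identifies such messengers nor excludes the other genes. The 4 were Eef1a1, Eif2s3x, Eif3f and Wars2. A match describes these letters only, and no binding was measured. The 27025 genes include many that are not on the array and were not matched to the genes described here, and the shares were not tested.

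The question of the main comparison was which of these transcripts differed between M833 and WT. Values are log2 ratios of sample over reference, adjusted for dye, and differences are M833 minus WT, with a gene counted as higher or lower where the adjusted p of limma over all 12761 features was under 0.05. Of the 74 genes, 12 were higher and 10 lower in M833, and 52 did not pass. Over all features 10.0% were higher and 15.9% lower, so 22 of 74 genes (29.7%) stood beside a background of 25.9%, and the share that differed was near that of the array as a whole. The median difference of the 74 genes was 0.006, beside -0.034 over all features. The sizes were small, from -0.35 for Eif2s3y to 0.27 for Eif6. In 5 of the genes (6.76%) the 4 M833 arrays and the 4 WT arrays were fully separated within each dye orientation, against 10.5% of all features: Eif6, Kars, Eif4enif1 and Eif4g2, which were higher, and Eif4a2, which was lower.

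Of 15 cytosolic synthetase genes 5 were lower and 1 was higher in M833, with a median difference of -0.11. Of 50 factor genes 10 were higher and 5 lower, with a median of 0.03. Classes were not tested against each other. The WT arrays formed sets that moved alike, replicates 1, 2, 5 and 6 (here the first set) against 3, 4, 7 and 8 (the second set). The M833 arrays were divided in the same way, and there the sets were weak. With these sets of 4 arrays as a random block, limma kept 5 of the 22 calls (Eif6 and Kars higher; Cars, Eif4a2 and Eif2s3y lower) beside 11.5% of all features, and the other 17 were not called. On the arrays with the sample in Cy5 alone 1 of the 74 genes was called (Eif6, 1.35%) beside 6.54% of all features, and with the Cy3 arrays 5 (6.76%) beside 8.62%. With each array centred on its median, 12 genes were higher and 6 lower, beside 24.9% of all features called. Over all features the higher share of the calls then rose from 38.7% to 50.3%. The lower calls lost on centring were those of Aars, Gars, Iars and Eif2s2 (adjusted p = 0.0528 to 0.204, limma). Of the cytosolic synthetases, Cars and Sars then stayed lower and Kars higher.

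**Figure D1:**
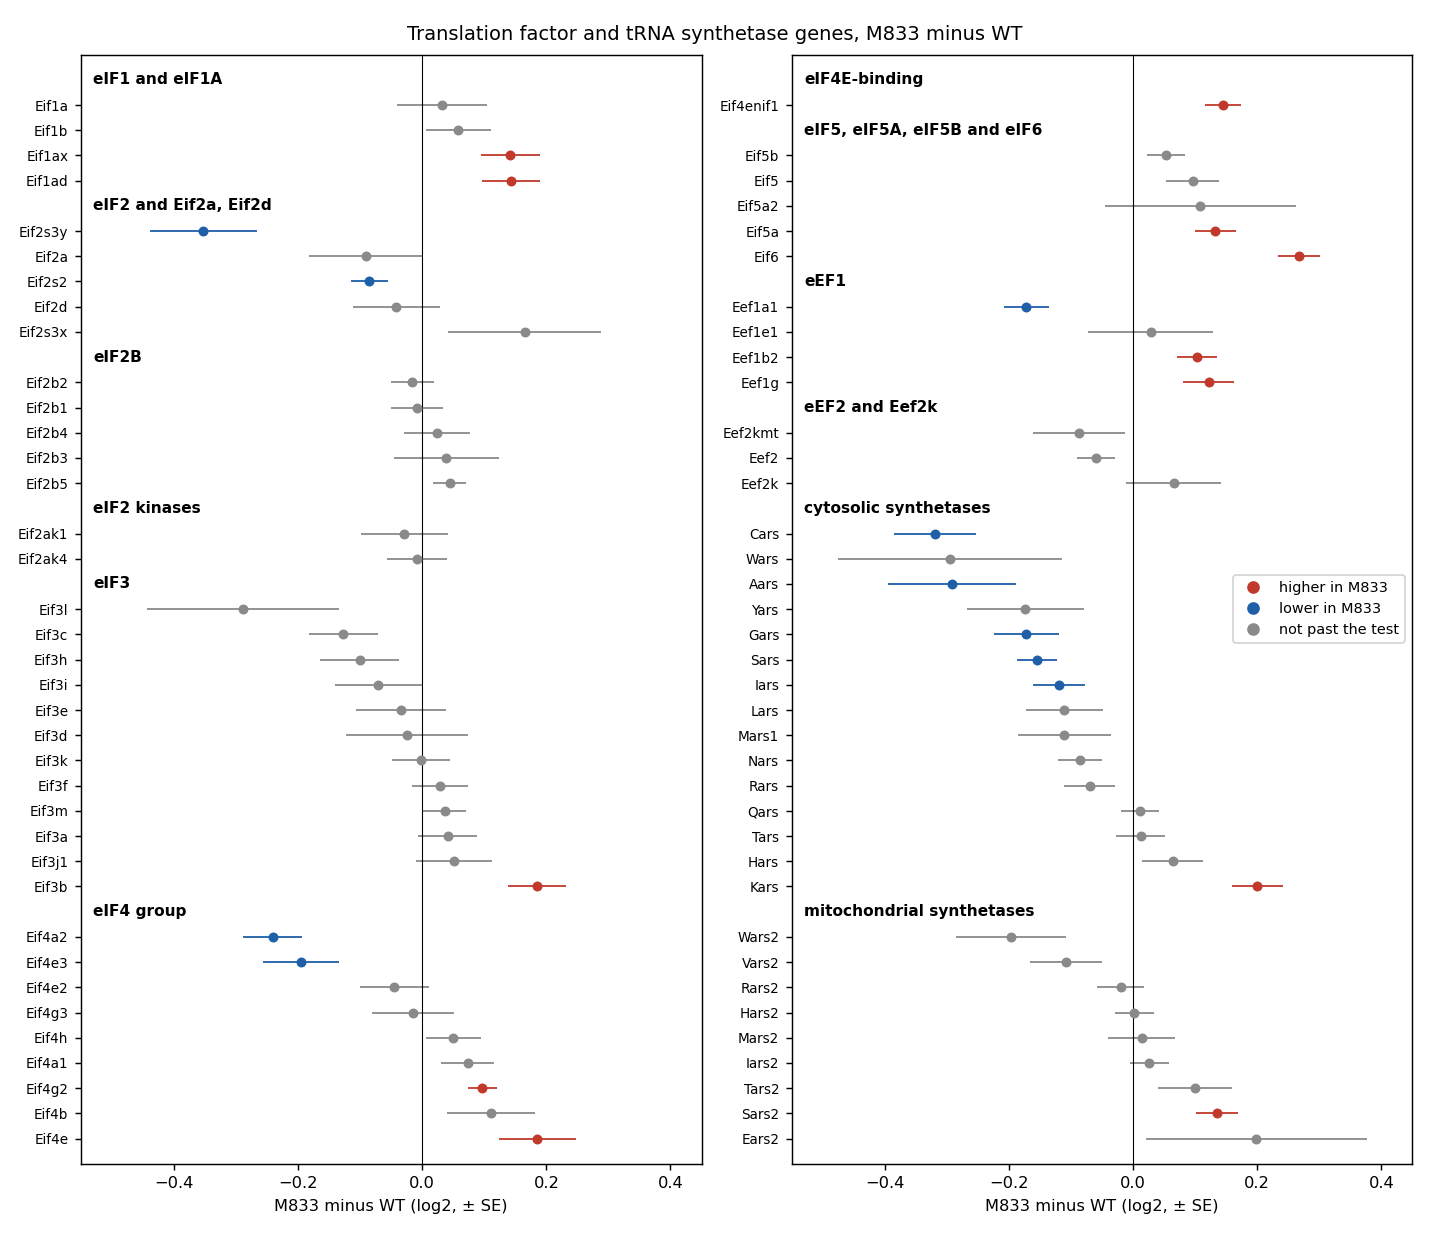
Difference of M833 minus WT on the log2 scale for all 74 genes by class, with the standard error of the limma fit as bars (n = 8 arrays per cell type). Red points passed the test as higher and blue points as lower in M833; among the 15 cytosolic synthetases 5 are blue and 1, Kars, is red.

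Several facts of the whole array bear on these small differences. The correlation between pairs of arrays over all probes was 0.591 to 0.973, and WT replicate 2 held all 49 values above 8 on the log2 scale, 0 of them in probes of the 74 genes. All 7 measured macrophage markers of 14 listed were lower in M833, with list means of -0.40 to -0.34 over the WT arrays and -1.54 to -1.29 over the M833 arrays. Of 11 measured genes of cycling cells 9 were higher and 2, Mki67 and Ccna2, did not pass, with list means of -0.62 to -0.14 in WT and 0.087 to 0.28 in M833. Of 9 measured fibroblast markers 6 were lower in M833 (list means -0.22 to -0.05 in WT and -0.55 to -0.38 in M833), and 3 of these calls, Col1a1, Vim and Lum, were lost with the random block (adjusted p = 0.0636 to 0.285, limma). The 3 erythroid markers had list means of -6.02 to -5.57 over all arrays and did not pass. All 3 skeletal muscle markers were higher in M833 (list means -2.85 to -2.18 in WT, -2.27 to -1.72 in M833), and the random block kept Mylpf and lost Myl4 and Tnnt1 (adjusted p = 0.191 and 0.198, limma). Since every level is a ratio to an undescribed reference, the labelled cell type could not be checked against its markers in absolute terms. Fewer cells of a kind and less RNA per cell cannot be told apart in these samples, and the part of any of these lists in the results below was not tested.

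Among the cytosolic synthetases, Cars, which charges tRNA with cysteine, showed the largest decrease. Its log2 ratio had a lowest, median and highest value of 0.35, 0.52 and 0.79 over the WT arrays and of 0.098, 0.24 and 0.45 over the M833 arrays. All 8 M833 arrays lay below the WT mean, and the ranges overlapped only where the lowest WT array met the upper M833 arrays. The difference was -0.32 ± 0.07 (SE, n = 8 per cell type), so that its ratio fell by 19.8% (adjusted p = 0.00227, limma), and it kept its call with the random block (adjusted p = 0.0313). The call of Cars was lost without the first M833 set (-0.22, adjusted p = 0.0913, limma) and on the Cy5 arrays alone (-0.25, adjusted p = 0.21).

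Sars, for serine, ran from 0.44 through 0.535 to 0.61 in WT (lowest, median and highest array, here and below) and from 0.29 through 0.35 to 0.46 in M833. Only the highest M833 arrays touched the WT range, and the difference was -0.155 ± 0.032 (adjusted p = 0.00216, limma). Its 3 probes did not move alike: 2 were lower, at -0.26 and -0.25, and the other stood at 0.041. With the log ratios scaled between arrays the difference of Sars was -0.077 (adjusted p = 0.103), and with the random block its adjusted p was 0.0539.

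Gars, for glycine, had the highest WT level of the 74 genes. It ran from 0.63 through 0.84 to 0.94 in WT and from 0.49 through 0.66 to 0.83 in M833, with overlapping ranges and all 8 M833 arrays below the WT mean. The difference was -0.17 ± 0.05 (adjusted p = 0.0261, limma). It was -0.067 on arrays with the sample in Cy5 and -0.28 on the Cy3 arrays, and -0.042 (adjusted p = 0.651) with the log ratios scaled between arrays. The call was also lost without WT replicate 3 or 8 or M833 replicate 6 or 7 (-0.16 to -0.145) and with the random block (adjusted p = 0.25).

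Aars, for alanine, ran from 0.55 through 0.76 to 1.11 in WT and from 0.11 through 0.54 to 0.78 in M833. The arrays spread widely and overlapped, although all 8 M833 arrays lay below the WT mean. The difference was -0.29 ± 0.10 (adjusted p = 0.0495, limma), just inside the threshold, and it was -0.55 on the Cy5 arrays and -0.038 on the Cy3 arrays (unadjusted p of the dye by cell type interaction 0.00841). Scaling between arrays gave -0.15, the second WT set alone -0.19 (adjusted p = 0.244), and the random block an adjusted p of 0.331. The call was lost without WT replicate 1, 2, 3, 4, 5, 6 or 7 or M833 replicate 1, 2, 4, 5 or 7 (-0.31 to -0.23).

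Iars, for isoleucine, ran from 0.25 through 0.33 to 0.56 in WT and from 0.12 through 0.25 to 0.296 in M833, and the ranges overlapped. The difference was -0.12 ± 0.04 (adjusted p = 0.0479, limma). It was -0.059 (adjusted p = 0.191) without the second WT set and -0.071 with scaling between arrays. Leaving out WT replicate 2, 3, 4, 7 or 8 or M833 replicate 1, 2, 3, 4, 5, 6 or 7 lost the call (-0.12 to -0.088), as did the random block (adjusted p = 0.275).

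Kars, for lysine, went the other way. It ran from -0.003 through 0.16 to 0.285 in WT and from 0.29 through 0.37 to 0.38 in M833, so every M833 array lay above every WT array. The difference was 0.20 ± 0.04 (adjusted p = 0.0019, limma), an increase of 14.9%, and it kept its call with the random block (adjusted p = 0.0183). Without the second WT set it was 0.11, still called, and without the first WT set it was 0.29. On the Cy5 or the Cy3 arrays alone its adjusted p was 0.0921 and 0.068. Kars makes both the cytosolic and the mitochondrial enzyme from the same gene.

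The other 9 cytosolic synthetases did not pass, at -0.295 for Wars to 0.064 for Hars. Wars, for tryptophan, had the widest spread of these genes (SD 0.36 in WT and 0.39 in M833), so that its difference of -0.295 ± 0.18 had an adjusted p of 0.253 in limma. Yars stood at -0.17 ± 0.09, Lars and Mars1 at -0.11, Nars at -0.086, Rars at -0.07, and Qars and Tars at 0.01. Lars, for leucine, had a WT mean of 0.40 in the first set and 0.10 in the second, beside 0.13 and 0.15 in the M833 sets. In the 4 genes whose printed promoter stretches hold the response element core, Aars and Iars were lower and Yars and Tars did not pass.

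**Figure D2:**
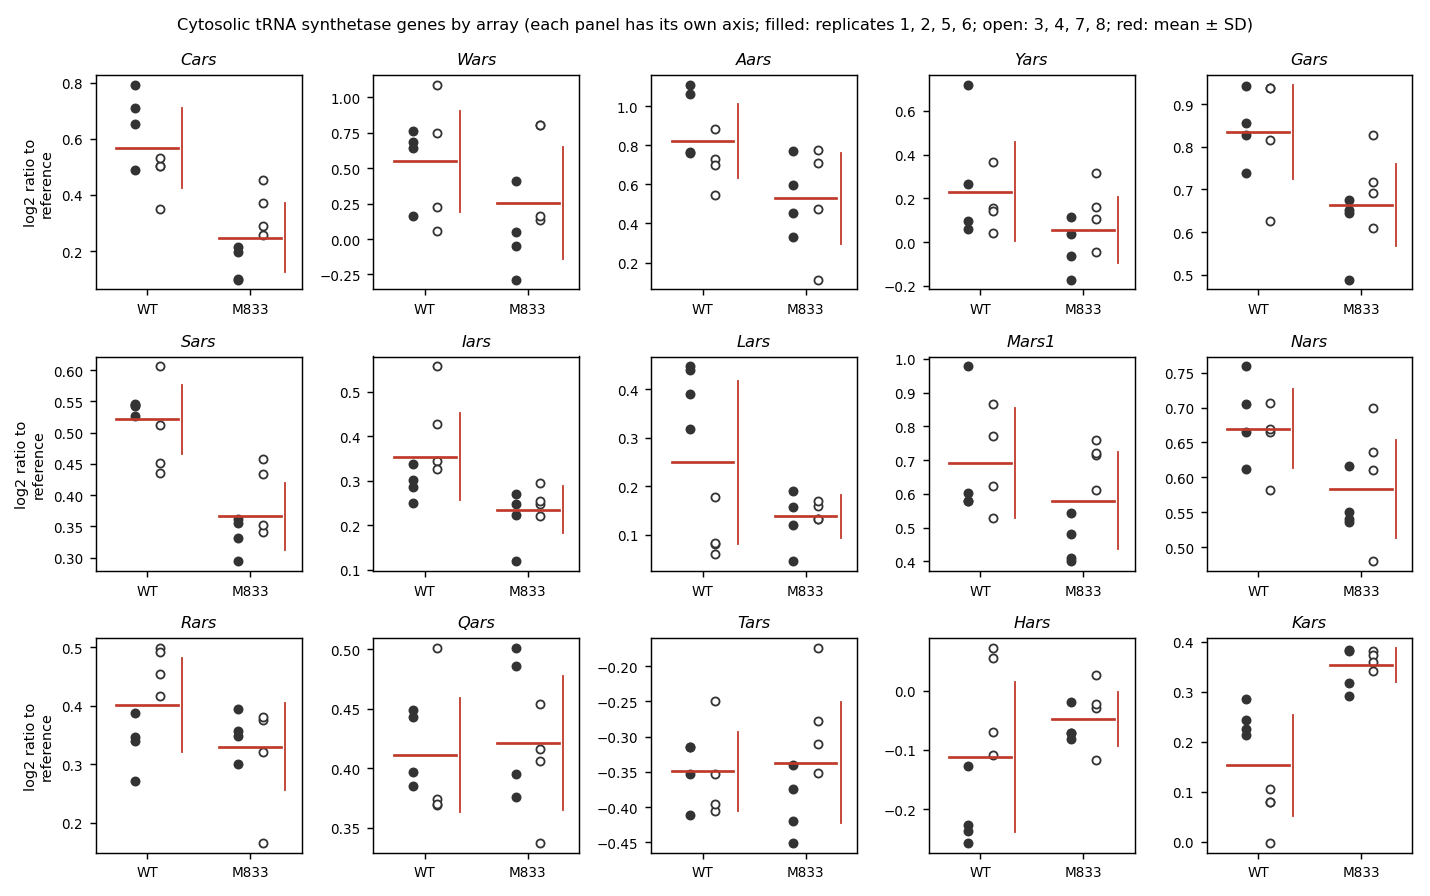
Dye-adjusted log2 ratio to the reference of each of the 15 cytosolic synthetase genes on every array, with an axis of its own in each panel; filled points are replicates 1, 2, 5 and 6, open points replicates 3, 4, 7 and 8, and red lines the mean ± SD of 8 arrays. Kars is the gene whose cell types do not overlap, and Lars shows the 2 sets of WT arrays standing apart.

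Among the 9 mitochondrial synthetases only Sars2, for serine, passed. Sars2 ran from -0.12 through 0.033 to 0.11 in WT and from 0.087 through 0.16 to 0.22 in M833. Few arrays overlapped, and the difference was 0.135 ± 0.034 (adjusted p = 0.00778, limma). With the random block the adjusted p was 0.0848, and without the second WT set the difference was 0.082, still called. The other 8 ranged from -0.20 ± 0.09 for Wars2 to 0.20 ± 0.18 for Ears2, and Hars2 stood at 0.002 ± 0.031.

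The class of eIF1 and eIF1A, which open the small subunit for scanning, was formed by symbol and also holds Eif1ad. Of its 4 genes, 2 were higher in M833. Eif1ax, the X-linked copy of eIF1A, ran from -0.25 through -0.094 to 0.054 in WT and from -0.025 through 0.06 to 0.082 in M833. The overlap came from the first WT set, which had a mean of 0.026, while the second WT set had a mean of -0.20. The difference was 0.14 ± 0.05 (adjusted p = 0.0398, limma), and it was 0.26 without the first WT set and 0.028 (adjusted p = 0.457) without the second. Its call was lost without WT replicate 3, 4, 7 or 8 or any of M833 replicates 2 to 8 (0.12 to 0.14) and with the random block (adjusted p = 0.126).

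Eif1ad, an eIF1A domain gene, ran from -0.67 through -0.58 to -0.45 in WT and from -0.61 through -0.43 to -0.32 in M833, with ranges that overlapped. Its difference was 0.14 ± 0.05 (adjusted p = 0.0303, limma). It was 0.081 without the first WT set, 0.058 with scaling between arrays and 0.095 without the first M833 set, none of them called. The call was also lost without WT replicate 1, 5 or 6 or M833 replicate 1, 2, 4, 5 or 8 (0.13 to 0.14) and with the random block (adjusted p = 0.198). Eif1b stood at 0.058 ± 0.052 and Eif1a at 0.03 ± 0.07. Eif1a and Eif1ax are close copies, and probe sequences were not used here, so that signal shared between them cannot be told apart.

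The eIF2 class comprised 3 subunit genes of eIF2, which carries the initiator tRNA, and Eif2a and Eif2d, which can place tRNA without it. Eif2s3y, the Y-linked copy of the gamma subunit, was the lowest of the 74 genes against the reference. It ran from -1.73 through -1.40 to -1.11 in WT and from -1.90 through -1.72 to -1.61 in M833, and the overlap came from the first WT set. The difference was -0.35 ± 0.09 (adjusted p = 0.00689, limma), so that its ratio fell by 21.7%, and was still called with the random block (adjusted p = 0.0405). It was -0.54 without the first WT set, -0.165 (adjusted p = 0.0792) without the second WT set, and -0.67 with scaling between arrays. The call of Eif2s3y was also lost without the second M833 set (-0.27, adjusted p = 0.135, limma), on the Cy5 or the Cy3 arrays alone (adjusted p = 0.16 and 0.0694), with no dye term (0.0885) and without the 3 M833 arrays whose title numbers form a separate series (0.0578).

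Its X-linked partner Eif2s3x stood at 0.165 ± 0.123 (adjusted p = 0.351, limma), with means of 0.32 in the first M833 set and -0.22 in the second. The WT sets were split the same way, with means of 0.081 and -0.31. Probe sequences were not used, so signal shared between Eif2s3x and Eif2s3y cannot be told apart. Eif2s3y was the only Y-linked gene measured in a list of sex-linked genes drawn up after the data were seen. Of the 7 measured genes of that list 2 were higher in M833, 1 was lower and 4 did not pass. The higher ones were the X-linked Ddx3x (0.39, adjusted p = 2.4e-05, limma) and Eif1ax, and the random block kept only Ddx3x. Xist, among those that did not pass, differed by -0.082 (adjusted p = 0.105, limma). Eif2s2, the beta subunit, ran from 0.40 through 0.51 to 0.57 in WT and from 0.35 through 0.41 to 0.47 in M833, with overlap. Its difference was -0.085 ± 0.03 (adjusted p = 0.0471, limma), and -0.001 with scaling between arrays.

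Without the second WT set Eif2s2 was at -0.045 (adjusted p = 0.285, limma). The call of Eif2s2 was lost without WT replicate 2, 3, 4, 6, 7 or 8 or M833 replicate 1, 2, 3, 5, 6 or 7 (-0.091 to -0.073) and with the random block (adjusted p = 0.27). Eif2a stood at -0.09 ± 0.09 and Eif2d at -0.042 ± 0.07.

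The 5 genes of eIF2B, the exchange factor that recharges eIF2 with GTP and is blocked when eIF2 is phosphorylated, differed little over all arrays. Eif2b2 stood at -0.016 ± 0.035, Eif2b1 at -0.008 ± 0.042, Eif2b4 at 0.024 ± 0.053, Eif2b3 at 0.039 ± 0.085 and Eif2b5 at 0.044 ± 0.027. None passed, and the widest 95% interval of a difference, that of Eif2b3, ran from -0.14 to 0.22. Without the first WT set, Eif2b1 (-0.1) and Eif2b3 (-0.16) were called lower. Without the second WT set, Eif2b3 was called higher (0.235). Of the eIF2 kinases, Eif2ak1 (the kinase activated by heme shortage) stood at -0.029 ± 0.07 and Eif2ak4 (Gcn2, which senses uncharged tRNA) at -0.008 ± 0.048.

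In the 12 measured subunits of eIF3, the scaffold on the small subunit, 1 was higher and 11 did not pass. Eif3b, a core subunit, ran from 0.20 through 0.37 to 0.50 in WT and from 0.46 through 0.55 to 0.61 in M833. The overlap came from the second WT set. The difference was 0.185 ± 0.047 (adjusted p = 0.00848, limma), and it was 0.081 (adjusted p = 0.0692) without the first WT set and 0.29 without the second WT set.

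With the random block the adjusted p of Eif3b was 0.0525. The other 11 subunits ranged from -0.29 ± 0.155 for Eif3l to 0.051 ± 0.061 for Eif3j1. The value of Eif3l rested on wide WT arrays, from 0.27 through 0.66 to 1.67, with the highest in WT replicate 2.

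Of 9 genes of the eIF4 group 2 were higher and 2 lower. Eif4a2, an RNA helicase of the cap complex, ran from -0.296 through -0.24 to -0.022 in WT and from -0.56 through -0.48 to -0.31 in M833. The highest M833 array lay under the lowest WT array, and the difference was -0.24 ± 0.05 (adjusted p = 0.00163, limma), so that its ratio fell by 15.4%. It kept its call with the random block (adjusted p = 0.0357) and lost it without the second M833 set (-0.19, adjusted p = 0.0638) and on the Cy5 or the Cy3 arrays alone (adjusted p = 0.0674 and 0.0715). Its close relative Eif4a1, the main form of the helicase in dividing cells, stood at 0.073 ± 0.043 and did not pass.

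Eif4g2, a scaffold related to eIF4G that does not bind the cap protein, ran from 0.045 through 0.057 to 0.105 in WT and from 0.12 through 0.16 to 0.22 in M833. The cell types did not overlap, and the difference was 0.097 ± 0.023 (adjusted p = 0.00501, limma; 0.0849 with the random block). Its 5 probes ranged from -0.021 to 0.32, and 2 of them passed.

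Eif4e, the cap-binding protein, ran from -0.74 through -0.49 to -0.32 in WT and from -0.40 through -0.33 to -0.28 in M833. The second WT set, with a mean of -0.36, lay among the M833 arrays, and the first WT set, with a mean of -0.67, lay below all of them. The difference was 0.185 ± 0.062 (adjusted p = 0.0377, limma), with all 4 probes between 0.146 and 0.21. It was 0.033 (adjusted p = 0.485) without the first WT set and 0.34 without the second WT set.

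Scaling between arrays gave 0.11 for Eif4e (adjusted p = 0.196, limma), and the random block an adjusted p of 0.107. Its call was also lost without WT replicate 1, 2, 5 or 6 or M833 replicate 1, 2, 4, 5, 6, 7 or 8 (0.15 to 0.19). Eif4e3, a divergent cap-binding relative, ran from -0.11 through 0.071 to 0.23 in WT and from -0.23 through -0.15 to 0.095 in M833, with overlap. Its difference was -0.195 ± 0.061 (adjusted p = 0.028, limma).

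For Eif4e3 the difference was -0.10 (adjusted p = 0.281, limma) without the first WT set and -0.11 without the second M833 set. The call was lost without WT replicate 1, 2 or 5 or M833 replicate 3, 4, 6 or 8 (-0.18 to -0.17) and with the random block (adjusted p = 0.153). The other 4 genes of the group ranged from -0.045 ± 0.056 for Eif4e2 to 0.11 ± 0.07 for Eif4b. Eif4h had the largest dye effect of these genes, -1.16 between orientations, which the model took up, and stood at 0.05 ± 0.04.

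Eif4enif1 carries eIF4E into the nucleus and holds it off messengers. It ran from -0.16 through -0.13 to -0.06 in WT and from -0.043 through 0.017 to 0.12 in M833, with no overlap. The difference was 0.145 ± 0.029 (adjusted p = 0.00179, limma), and it was alike without either set of WT arrays, at 0.14 and 0.15. With the random block the adjusted p was 0.0514. Of its 3 probes 2 passed, at 0.24 and 0.165, and the other stood at 0.033.

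All 5 genes of eIF5, eIF5A, eIF5B and eIF6 had differences above 0, and 2 of them passed. Eif6, whose product keeps large ribosomal subunits free and takes part in their maturation, ran from 0.31 through 0.38 to 0.54 in WT and from 0.61 through 0.66 to 0.73 in M833. The cell types were separated on all 16 arrays. The difference was 0.27 ± 0.03 (adjusted p = 4.11e-05, limma), an increase of 20.4%, the largest of the 74 genes.

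Both probes of Eif6 passed, at 0.26 and 0.28. Eif6 was called under 30 of the 31 alternative settings, with the random block included (adjusted p = 0.00145, limma), and was not called where the mean of each set of 4 arrays counted as 1 replicate, which left 0 calls on the array (1675 features at an unadjusted p under 0.05). Eif5a, which helps ribosomes through proline stretches, ran from 0.011 through 0.13 to 0.19 in WT and from 0.19 through 0.24 to 0.295 in M833. Its ranges met only at their edges, and the difference was 0.13 ± 0.03 (adjusted p = 0.00806, limma).

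For Eif5a the adjusted p of limma was 0.0561 without the first WT set, where the difference was 0.092, and 0.114 with the random block; with the sample in Cy3 alone the difference was 0.088. Eif5, which triggers GTP hydrolysis on eIF2, stood at 0.096 ± 0.043, Eif5b at 0.053 ± 0.031 and Eif5a2 at 0.11 ± 0.15.

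**Figure D3:**
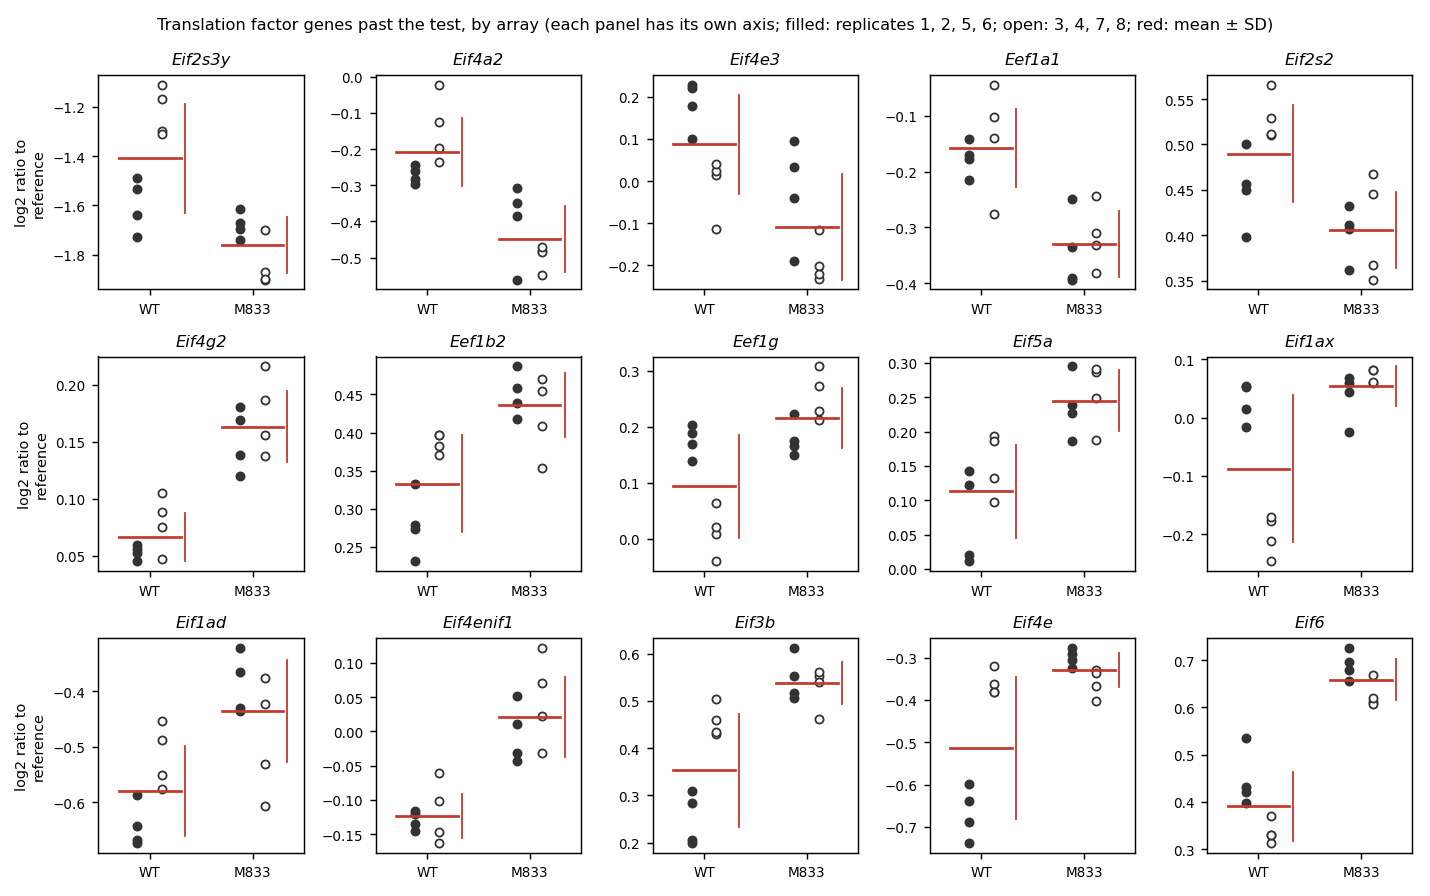
Dye-adjusted log2 ratio to the reference of the 15 initiation and elongation factor genes that passed the test, on every array, with an axis of its own in each panel; filled points are replicates 1, 2, 5 and 6, open points replicates 3, 4, 7 and 8, and red lines the mean ± SD of 8 arrays. Eif6, Eif4enif1, Eif4g2 and Eif4a2 do not overlap between cell types, while in Eif4e and Eif1ax 1 set of WT arrays lies with the M833 arrays.

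Of the 4 eEF1 genes, the alpha subunit fell and the beta and gamma subunits of its exchange factor rose. Eef1a1, which delivers charged tRNA to the ribosome, ran from -0.28 through -0.155 to -0.044 in WT and from -0.39 through -0.33 to -0.24 in M833. The ranges overlapped at the lowest WT array, and all 8 M833 arrays lay below the WT mean. The difference was -0.17 ± 0.04 (adjusted p = 0.00257, limma; 0.077 with the random block).

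Of 8 probes of Eef1a1, 6 were lower, down to -0.37, and the others stood at -0.10 and 0.075. This gene has many processed copies in the genome, and what a probe shares with them was not tested. Eef1b2, the beta subunit, ran from 0.23 through 0.35 to 0.40 in WT and from 0.35 through 0.45 to 0.49 in M833, with overlap through the second WT set. Its difference was 0.10 ± 0.03 (adjusted p = 0.0263, limma).

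For Eef1b2 the difference was 0.049 (adjusted p = 0.258, limma) without the first WT set, 0.16 without the second WT set, and 0.18 with scaling between arrays. The call was lost without WT replicate 2 or M833 replicate 4 or 6 (0.095 to 0.098) and with the random block (adjusted p = 0.165). Eef1g, the gamma subunit, ran from -0.04 through 0.10 to 0.20 in WT and from 0.15 through 0.22 to 0.31 in M833, with overlap through the first WT set. Its difference was 0.12 ± 0.04 (adjusted p = 0.0386, limma).

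All 7 probes of Eef1g were above 0, from 0.055 to 0.18, and 2 passed. The difference was 0.20 without the first WT set and 0.041 (adjusted p = 0.358, limma) without the second WT set. The call of Eef1g was lost without WT replicate 3, 4, 7 or 8 or M833 replicate 3, 4, 5, 7 or 8 (0.10 to 0.12) and with the random block (adjusted p = 0.154).

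Eef1e1, a scaffold protein of the synthetase complex despite its name, stood at 0.028 ± 0.10. Eef2 itself stood at -0.06 ± 0.03, its inhibitory kinase Eef2k at 0.065 ± 0.076 and its methyltransferase Eef2kmt at -0.087 ± 0.074, and none of these 3 passed.

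Against the common reference, 39 of the 74 genes lay above and 23 below in WT (43.5% and 35.8% of all features), and 38 above and 18 below in M833 (36.3% and 36.1%). Of the 15 cytosolic synthetases 13 lay above it in WT and 11 in M833. Their order in WT ran from Gars (0.835 ± 0.11, SD, n = 8) and Aars (0.82 ± 0.19) through Mars1 (0.69 ± 0.16) and Nars (0.67 ± 0.06) down to Hars (-0.11 ± 0.13) and Tars (-0.35 ± 0.06). Gars and Aars did not differ beyond their spread, nor did Mars1 and Nars. Since each gene's ratio depends on its own level in the reference, this order is not an order of abundance.

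Of the mitochondrial synthetases 2 of 9 lay above the reference in WT, with Iars2 highest (0.24 ± 0.06) and Ears2 lowest (-0.47 ± 0.50). Among the eIF3 genes 8 of 12 lay above it in each cell type, from Eif3l (0.70 ± 0.42 in WT) to Eif3f (-0.13 ± 0.10 in WT). Among the eIF2B genes 4 of 5 did, from Eif2b2 (0.56 ± 0.06) to Eif2b4 (-0.18 ± 0.10). The 3 genes of eEF2 and its modifiers were all under the reference in WT and in M833, with Eef2k lowest at -0.68 ± 0.19 in WT and -0.61 ± 0.11 in M833. In the eIF4 group the levels ran from Eif4e2 (0.215 ± 0.15 in WT) to Eif4e (-0.51 ± 0.17 in WT).

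**Figure D4:**
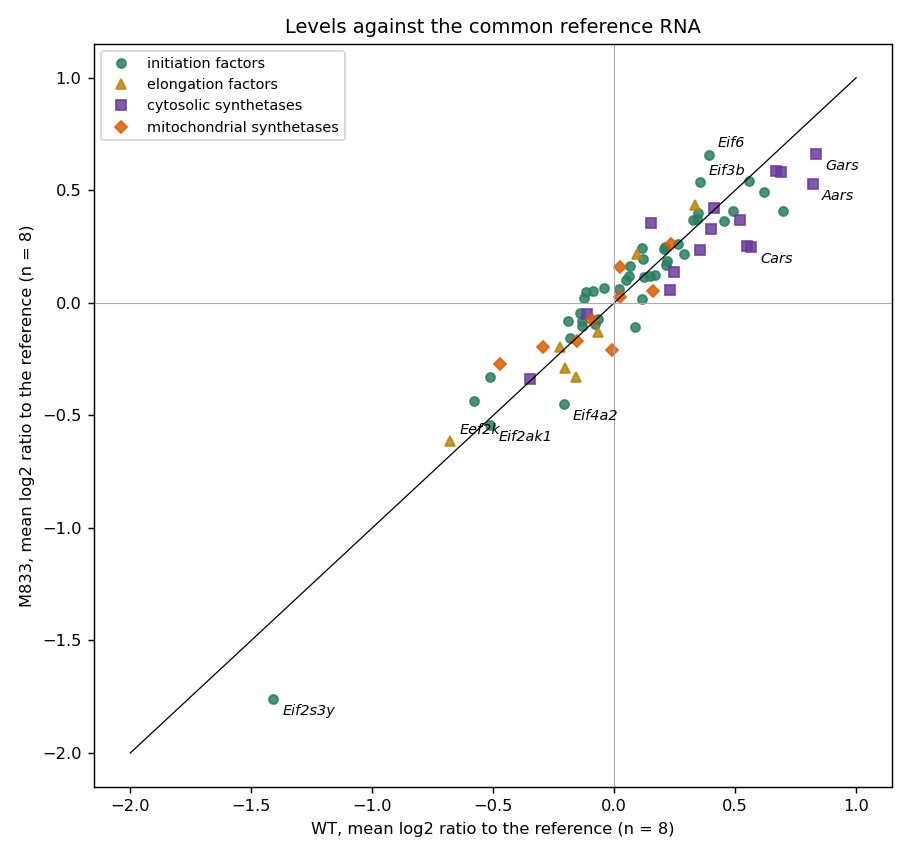
Mean log2 ratio to the reference in WT (x axis) and in M833 (y axis) of all 74 genes, with n = 8 arrays each, marked by class; the line marks equal levels. Gars and Aars are the highest in WT, at 0.835 and 0.82, both below the line, Eif6 lies above it, and Eif2s3y is the lowest in both cell types, at -1.41 and -1.76.

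The 2 sets of WT arrays stood apart in many of these genes. In 40 of the 74 genes (54.1%) the first WT set did not overlap with the second after dye adjustment, against 35.5% of all features, and in M833 in 7 of the 74 (9.46%) against 9.47%. The sets were found on the whole table, of which these genes are a part, so this is a description. The sets also differed in the cycling cell genes, whose list means ran from -0.25 to -0.14 in the first WT set and from -0.62 to -0.56 in the second WT set. Means of the macrophage list did not separate them, at -0.40 to -0.35 and -0.40 to -0.34.

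In 5 genes that did not pass over all arrays, M833 lay on opposite sides of the 2 WT sets, and each difference passed limma by itself. Measured against the second set and then against the first, the differences were -0.22 and 0.28 for Eef1e1, -0.15 and 0.215 for Eif1a, -0.16 and 0.235 for Eif2b3, -0.11 and 0.21 for Eif3j1, and 0.135 and -0.20 for Eif3e. Against the second set alone 10 genes were higher and 14 lower (32.4% of the 74, beside 33.9% of all features). Against the first alone 20 were higher and 14 lower (45.9%, beside 36.3%). Among the 22 genes that passed over all arrays none changed sign between the sets. These 22 were selected on the same arrays, where opposite signs would have made a call unlikely. Their equal signs are therefore no separate evidence.

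**Figure D5:**
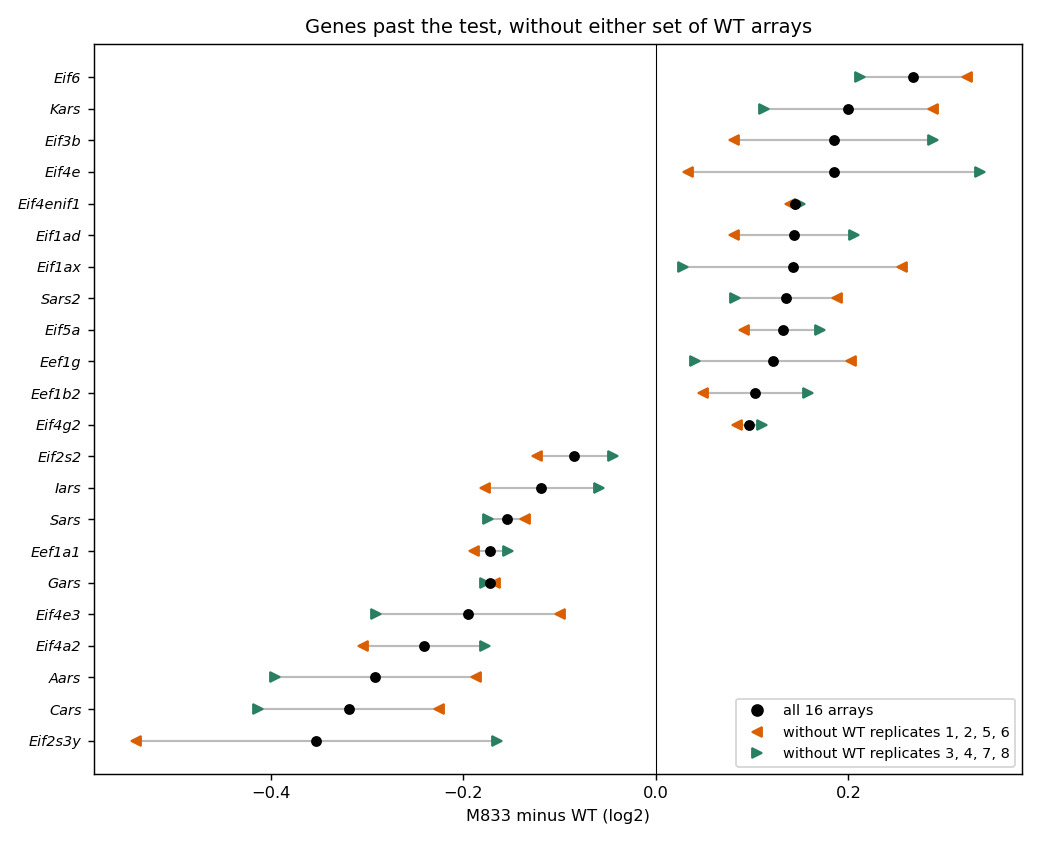
Difference of M833 minus WT on the log2 scale for the 22 genes that passed the test, with all 16 arrays (black) and without either set of 4 WT arrays (orange and green triangles). Eif4enif1, Eif4g2, Sars, Gars and Eef1a1 lie close together in all 3 fits, while Eif4e runs from 0.033 to 0.34 and Eif2s3y from -0.54 to -0.165.

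Genes that act beside these factors were followed in lists that did not use the naming rule. Over all features 10.0% were higher and 15.9% lower in M833, beside which the counts of these lists stand. Of 16 measured genes of the integrated stress response, the pathway in which phosphorylated eIF2 leads to ATF4, 6 were lower, 1 was higher and 9 did not pass, with a median difference of -0.185. The lower ones with the largest differences were the stress-induced gene Nupr1 (-1.20 ± 0.13), the pseudokinase gene Trib3 (-0.48 ± 0.125), asparagine synthetase Asns (-0.38 ± 0.06) and the amino acid transporter chain Slc3a2 (-0.36 ± 0.07). Atf4 stood at -0.22 ± 0.08 (adjusted p = 0.0525, limma) and did not pass, and the amino acid transporter Slc38a2 was higher, at 0.13 ± 0.03. Of the 15 genes of this list with a promoter window, the response element core lay in Atf3, Nupr1 and Vldlr. With the random block 1 of the 6 lower genes, Mthfd2, lost its call (adjusted p = 0.0781, limma), and the 4 named kept theirs, and the list means were -0.065 to 0.098 over the M833 arrays and 0.14 to 0.315 over the WT arrays.

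Of 25 measured translation genes outside the rule 10 were higher, none was lower and 15 did not pass, with a median of 0.11. The highest were the RNA helicase Ddx3x (0.39 ± 0.05), the alanyl-tRNA editing gene Aarsd1 (0.38 ± 0.09), the poly(A)-binding protein Pabpc4 (0.26 ± 0.05) and the release factor Etf1 (0.23 ± 0.05). The synthetases and scaffold genes of this list, Eprs (-0.059), Farsa (0.12), Farsb (-0.01), Aimp1 (0.11) and Aimp2 (0.15), did not pass. Of 26 measured Myc and ribosome biogenesis genes 15 were higher, none was lower and 11 did not pass, with a median of 0.19. They were led by the rRNA methyltransferase Fbl (0.43 ± 0.045), the RNA polymerase I subunit Polr1a (0.38 ± 0.055), the pseudouridine synthase Dkc1 (0.36 ± 0.035) and spermidine synthase Srm (0.335 ± 0.09).

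Myc itself stood at -0.075 ± 0.10. With the random block 4 of the 10 higher translation genes and 6 of the 15 higher Myc and ribosome biogenesis genes lost their calls, and the 4 genes named from each list kept theirs. Of the 15 genes with an E-box in their window, 2 were higher (Eif4e and Eif5a) and 2 lower (Aars and Iars). The other 11 did not pass, and the median difference was 0.05. The share called was near the 25.9% of all features. Of 15 measured mTORC1 genes 2 were lower, the kinase Akt1 (-0.28 ± 0.03) and the mTORC1 inhibitor Akt1s1 (-0.195 ± 0.05), and 2 higher, Rragd (0.42 ± 0.13) and Larp1 (0.24 ± 0.08), which binds messengers that begin with pyrimidines. The call of Akt1 held with the random block, and those of the other 3 did not (adjusted p = 0.0908 to 0.239, limma).

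The difference between cell types did not depend on the dye beyond the threshold for any feature: the limma interaction gave 0 calls, with 361 features at an unadjusted p under 0.05. Of the 74 genes 3 were among these, Aars, Gars (0.0429) and Qars (0.0441). A dye effect common to both cell types passed in 39 of the 74 genes, beside 41.3% of all features.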

How the data were processed

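The values are log2 ratios of sample over reference that the authors had normalised before they deposited them. The submitters' processing notes name limma, without a version; for background correction and normalisation the method is not given in the sources used here. Base 2 was taken from the values, and the direction, which the titles make likely, is not stated. Array medians lay between -0.017 and 0.072. Probes were named through the platform annotation (9600 of 15247 with a single symbol, 214 with several, 5433 with none); 1 probe of several symbols naming one of these genes was left out, and all 74 genes matched the current gene table with 0 symbols changed. Probes of a gene were averaged (28 of the 74 had several), giving 12761 features. Channel intensities were not used here, so dim or saturated probes could not be filtered.

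All features were fitted with limma 3.58.1 in R 4.3.3 (lmFit, eBayes) on 16 arrays, cell type and dye being the terms, and p-values were adjusted by Benjamini-Hochberg over all features. SE is that of the fitted difference, SD that over arrays after dye adjustment. Arrays were grouped by their labels and numbered in the order of the series. The genes, classes, motifs and lists were chosen with earlier results of these data known, and the sex-linked list after the data were seen; lists were described and not tested. Every gene of the rule was accounted for by class, values by array were given for the genes that passed, and up to 4 genes of each other list were named by size. The fit of M833 minus WT was tried on simulated data of 12761 genes with independent noise and few genes changed. It recovered 8% of genes changed by 0.125, 68% at 0.25, 84% at 0.5 and 98% at 1 (log2), with 6 false calls. The simulated arrays held no sets that moved alike, and fewer genes were changed than were called here. These rates therefore do not carry over to the arrays of this series. Deviations of arrays of opposite dye correlated at 0.182 to 0.512 within the 2 WT sets and at -0.511 to -0.157 between them (8 pairs each). In M833 they were 0.0263 to 0.239 and -0.195 to 0.0276, ranges that overlap (8 pairs each). Deviations were from the mean of each cell type and dye, so values between sets mirror those within and add no separate evidence. The random block used a consensus correlation of 0.324. Alternatives are given in the closing section.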

Additional observations from a re-analysis of the deposited data

Results flagged for a closer look

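Of 148 sets of 8 arrays (74 genes in 2 cell types), 14 (9.46%) held an array whose gap to the nearest other exceeded Dixon's critical value of 0.526 of the range, where chance gives about 1 in 20. WT replicate 2 was the array in 3 of them: Ears2 at -1.635 (nearest -0.5), Eif3l at 1.666 (nearest 0.697) and Wars2 at 0.52 (nearest 0.013). Other WT arrays stood apart in Eif5a2 (replicate 3, -1.08), Eif2d (replicate 4, -0.253) and Eif2b2 (replicate 6, 0.425). M833 arrays stood apart in Eif1ax (replicate 1, -0.025), Iars (replicate 2, 0.119), Eif4b (replicate 3, 0.017), Rars (replicate 3, 0.165), Eef2 (replicate 5, -0.008), Eif2ak1 (replicate 5, -0.11), Eif3c (replicate 6, 0.278) and Eif2b4 (replicate 7, 0.06). Of these genes Eif1ax and Iars had passed the test. Without the array that stood apart Eif1ax was at 0.154 (adjusted p = 0.0394, limma) and was still called, and Iars was at -0.101 (adjusted p = 0.0948), which was not called.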

How the results depend on the processing

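Over all features 3301 were called. The count was 2000 (780 higher, 1220 lower) with no dye term, 835 (287 and 548) with the sample in Cy5, 1100 (406 and 694) with it in Cy3, 1465 (562 and 903) with sets of arrays as a random block, 0 with set means as replicates (1675 features and 5 of the 74 genes at an unadjusted p under 0.05, limma), 1685 (661 and 1024) without M833 replicates 1, 2, 5 and 6 and 1858 (699 and 1159) without M833 replicates 3, 4, 7 and 8. In the same order, the 12 higher and 10 lower genes became 5 and 3, 1 and 0, 2 and 3, 2 and 3, 0 and 0, 5 and 4, and 5 and 4. Centring each array or scaling between arrays gave 12 and 6 (24.9% and 26.7% of all features called), with medians of 0.031 and 0.01. Leaving out the 3 M833 arrays whose title numbers form a separate series gave 5 and 4 (17.3% of all features called). Leaving out WT replicates 3, 4, 7 and 8 gave 20 higher and 14 lower (36.3% of all features). With each array left out in turn, 2878 to 3295 features, 7 to 10 higher and 6 to 9 lower genes were called, and the median of the genes ran from -0.004 to 0.014. Of 2294 single-gene values under these settings, 2011 kept their side of the threshold, 249 lost a call and 29 gained one. Most of the 2294 values belong to the 52 genes that had not passed and so had no call to lose. All 249 losses fell among the 12 higher and 10 lower genes. The settings that kept the call of such a gene ranged from 8 of 31 for Aars, Eif2s2 and Iars to 30 of 31 for Eif6. Reversed values came without WT replicates 1, 2, 5 and 6: Eef1e1 -0.223, Eif1a -0.152, Eif2b3 -0.158, Eif3e 0.135 and Eif3j1 -0.106. With each probe by itself, 12 genes had probes higher and 11 lower. In this count 1 passing probe was enough for a gene, so it is not comparable with the 12 and 10 of the averaged probes. No paired analysis was possible because the labels give no replicate numbers.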
